A study of Mus musculus with 59 samples.

Results

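Transcripts that peaked at the early 2-cell stage of cloned mouse embryos are described here. They were chosen by their measured levels: a transcript had to be higher by 1 or more at the early 2-cell than at the 1-cell stage, higher by 1 or more at the early than at the late 2-cell stage, and at 2 FPKM or more at the early 2-cell stage. Both differences are on the log2(FPKM + 1) scale, where 1 is a 2-fold change of FPKM + 1. FPKM is a level: the fragments of a transcript, per unit of its length and of library size. Of 24421 genes in the table, 24 met the rule. Symbols that mark pseudogenes (-ps) were to be left out, and 0 of the genes that met the rule had one.

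The embryos were clones obtained by somatic cell nuclear transfer (SCNT): a differentiated cell supplies the nucleus for an oocyte whose own was removed, and activation starts development. All RNA groups carry the strain label BDF1, cumulus cells of the same strain are labelled as the donor cells of SCNT, and RNA was poly(A) RNA. The labels' growth protocol names superovulated C57BL/6n females of 5 to 7 weeks as oocyte donors, in a text that also covers fertilized embryos. There were 4 groups. Untreated embryos were collected as 1-cell embryos 13 to 14 h past activation, at the early 2-cell stage (20 to 21 h) and at the late 2-cell stage (33 to 34 h). The fourth group had received trichostatin A (TSA) and was collected with the late 2-cell timing, 33 to 34 h. TSA inhibits histone deacetylases. The sources used here give neither its dose and timing nor the number of embryos per library. The labels list 5 libraries per group, but the authors' table has a single column for each group. No value below therefore has an error or a replicate check, and no test was possible. Fewer cells of a kind and less RNA per cell cannot be told apart in such bulk values.

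As background, the mouse egg stores maternal transcripts that support the first division. A minor wave of transcription begins in the 1-cell embryo, and a major wave at the 2-cell stage replaces the maternal pool, which is degraded over the same period.

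Some sequences help to place the members. The 250 bases before the annotated start of 4 of them, read from RefSeq (GRCm38.p6, 5′ to 3′ on the gene's strand), show the range of base composition among them, with each CG dinucleotide in capitals. The entries of Mir155hg (chr16:84712773-84713022, plus strand) and Snurf (chr7:60005200-60005449, minus strand) were far higher with TSA than without. Snurf lies inside Snrpn, and the sum of these 2 genes was not higher with TSA (92.4 FPKM without and 86.8 FPKM with it). It also lies inside the noncoding gene Snhg14, and the sum of Snurf and Snhg14 was higher with TSA (3.18 FPKM without and 42.9 FPKM with it). Mgst3 (chr1:167393842-167394091, minus strand) was the most abundant member in each untreated group, and Slain2 (chr5:72914112-72914361, plus strand) rose most among the members already present at the 1-cell stage.

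Mir155hg: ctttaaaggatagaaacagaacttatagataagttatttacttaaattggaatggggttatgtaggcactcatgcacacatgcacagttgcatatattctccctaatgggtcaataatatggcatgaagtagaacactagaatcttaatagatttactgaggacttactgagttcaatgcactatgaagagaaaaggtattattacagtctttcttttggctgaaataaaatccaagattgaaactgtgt

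Snurf: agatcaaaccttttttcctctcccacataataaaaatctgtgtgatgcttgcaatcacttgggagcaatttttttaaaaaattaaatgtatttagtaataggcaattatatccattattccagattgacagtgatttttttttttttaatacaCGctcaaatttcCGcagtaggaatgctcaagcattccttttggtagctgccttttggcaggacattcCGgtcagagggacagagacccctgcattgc

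Mgst3: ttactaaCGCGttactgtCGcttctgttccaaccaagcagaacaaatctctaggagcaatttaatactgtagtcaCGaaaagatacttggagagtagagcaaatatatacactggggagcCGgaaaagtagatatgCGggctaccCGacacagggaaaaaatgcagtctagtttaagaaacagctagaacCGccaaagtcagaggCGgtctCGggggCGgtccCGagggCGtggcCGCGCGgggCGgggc

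Slain2: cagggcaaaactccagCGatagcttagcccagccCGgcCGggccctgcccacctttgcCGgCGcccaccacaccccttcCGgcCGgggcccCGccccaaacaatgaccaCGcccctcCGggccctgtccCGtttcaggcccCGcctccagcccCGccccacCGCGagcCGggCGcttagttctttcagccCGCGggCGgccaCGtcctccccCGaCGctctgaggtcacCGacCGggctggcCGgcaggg

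The Mir155hg stretch holds 0 CG dinucleotides at 33.2% G + C, and that of Snurf holds 3 at 36.8%. The Mgst3 stretch holds 17 at 51.6%, and that of Slain2 holds 26 at 74.4%.

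Members of the table also include a microRNA host transcript and a microRNA gene. The mature microRNAs at these positions are shown with the seed (bases 2 to 8) in capitals, because the seed pairs with target transcripts. The values below are for the table's gene entries and not for these mature forms.

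mmu-miR-155-5p: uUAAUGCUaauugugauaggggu

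mmu-miR-155-3p: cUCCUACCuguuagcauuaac

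mmu-miR-8114: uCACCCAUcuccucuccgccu

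The 3 seeds differ from one another.

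Across the table, 9477 genes were at 1 FPKM or more at the early 2-cell stage and 12215 at the late 2-cell stage, and 44.2% and 25.03% of all FPKM came from the top 100 genes. The 24 members' share of all FPKM was 0.400% at the 1-cell, 0.910% at the early 2-cell and 0.148% at the late 2-cell stage, and 0.215% with TSA. Of 12 markers of the egg and early embryo, 12 were at 1 FPKM or more in each of the 4 groups. Of 20 markers of cumulus and granulosa cells, 6, 7, 7 and 6 were at 1 FPKM or more in the same order. The summed level of the 20 was 30.1, 30.4, 94.3 and 41.7 FPKM. Most of the late 2-cell sums came from Anxa2, at 66.996 FPKM without and 23.62 FPKM with TSA. Lgals1 was next without TSA, at 9.06 FPKM, whereas Foxl2 was at 0.19 FPKM and Inha and Col3a1 were listed at 0. Between the untreated 2-cell stages, 4 of the 20 rose by 1 or more and 1, Cyp19a1, fell by 1 or more. Cyp19a1 was at 8.31 FPKM at the 1-cell, 6.26 FPKM at the early 2-cell and 0.498 FPKM at the late 2-cell stage. Its late 2-cell level was higher with TSA than without, unlike those of Anxa2 and Lgals1. Of 11 blood markers, 0, 1, 5 and 5 were at 1 FPKM or more, with summed levels of 1.06, 5.63, 86.5 and 127 FPKM. Most of the late 2-cell sums came from Hba-a1 (32.927 FPKM without and 49.96 FPKM with TSA) and Hba-a2 (33.002 and 56.29 FPKM). Lyz2, Cd74 and Cd52 were also above 1 FPKM in both late 2-cell groups. Hbb-bs, Hbb-bt, Ptprc and Tyrobp were listed at 0 in both. None of the members is on these lists, and the part of other cells in the members' levels was not tested.

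In the untreated embryos, 376 of 13012 genes (2.89%) were higher by 1 or more at the early 2-cell than at the 1-cell stage. Of the same genes, 1399 (10.8%) were higher by 1 or more at the early than at the late 2-cell stage. The 24 members make up 0.184% of them. These shares come from the differences that chose the members and are given as a description. By the same size of difference, 319 genes had the opposite course, with a dip at the early 2-cell stage and at least 2 FPKM on either side of it.

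The members fell into 17 that were already present at the 1-cell stage (2.43 to 1084 FPKM) and 7 that were under 1 FPKM there. Over the 13012 genes, 3593 were under 1 FPKM at the 1-cell stage, so 7 of 24 is near the share over all genes. Of the 17, 14 rose by less than 3-fold in plain FPKM, from 2.01 to 2.78-fold. The rule sets the lower end of this range and the cut at 3-fold limits the upper end. The other 3 rose more, with Rsc1a1 at 3.21-fold, Apoo at 3.51-fold and Slain2 at 6.53-fold. At the late 2-cell stage, 15 of the 24 were below their own 1-cell level. The median member retained 20.9% of its early 2-cell level there. Because the rule required a fall to this stage, both values are a description. The count below the 1-cell level was not taken over all genes.

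Genes of metabolism and mitochondria included the member most abundant in untreated embryos. Mgst3, a microsomal glutathione S-transferase, was at 1084 FPKM at the 1-cell stage, 2264 FPKM at the early 2-cell stage and 220.3 FPKM at the late 2-cell stage, and at 151 FPKM in late 2-cell embryos given TSA. 1110001J03Rik, now named Fmc1 and known as an assembly factor of mitochondrial ATP synthase, was at 146, 325, 34.8 and 27.0 FPKM in the same order, which is used for all members below. Apoo, a subunit of the MICOS complex that shapes the inner mitochondrial membrane, was at 37.2, 131, 20.2 and 10.2 FPKM. In these 3 the level with TSA was the lowest of the 4 groups. Hk2, a hexokinase that performs the first step of glycolysis, was lower throughout, at 2.43, 6.47, 1.49 and 2.38 FPKM. Mettl20, also named Etfbkmt, a methyltransferase of the electron transfer flavoprotein, was at 6.46, 15.3, 6.46 and 7.67 FPKM, so its 1-cell and untreated late 2-cell levels were alike. Abcd2, a peroxisomal transporter of fatty acids, was at 0.83 and 12.6 FPKM in the first pair of groups and listed at 0 in both late 2-cell groups.

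Genes of RNA and protein handling and of the cytoskeleton made up the next group. Lsm7, a subunit of the LSm ring that binds U6 RNA and decaying mRNA, was at 116, 288, 102 and 92.6 FPKM. Tardbp, which encodes the RNA-binding protein TDP-43, was at 40.7, 85.3, 27.8 and 32.3 FPKM. Trmt112, the activating partner of several methyltransferases of RNA and protein, was at 64.3, 133, 37.9 and 42.7 FPKM. Each of these was highest at the early 2-cell stage and lowest in a late 2-cell group. Slain2, which promotes microtubule growth, was at 22.8, 149, 67.9 and 93.0 FPKM, so both late 2-cell levels stayed above the 1-cell level. Wdr83, a scaffold protein of kinase signalling, was at 2.84, 7.16, 2.60 and 3.95 FPKM.

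Regulators, imprinted genes and a membrane protein gene are described next. Meis2, a homeobox transcription factor of the TALE class, was at 145, 334, 54.9 and 172 FPKM. Snurf, an imprinted gene whose reading frame lies upstream of that of Snrpn, was at 3.09, 8.59, 0.0090 and 38.2 FPKM. Rsc1a1, a regulator of solute carriers, was at 13.9, 44.6, 20.6 and 75.2 FPKM. For Snurf and Rsc1a1 the highest of the 4 levels was with TSA, above the early 2-cell peak. Phlda2, an imprinted gene that restrains placental growth, was at 10.04, 27.3, 2.23 and 4.92 FPKM. Ifitm3, an interferon-induced membrane protein also known from early germ cells, was at 194, 389.7, 46.9 and 42.0 FPKM. Neither came back to its 1-cell level in a late 2-cell group.

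Of the 4 noncoding entries, 1 had the steepest course of the table. Mir155hg, the host transcript of miR-155, was listed at 0 at the 1-cell stage, reached 162 FPKM at the early 2-cell stage and was down to 0.52 FPKM at the late 2-cell stage, but was at 169 FPKM there with TSA. By the smaller of its rise and its fall it ranked 1 of 13012 genes, with a rise of 7.35 and a fall of 6.75 on the log2(FPKM + 1) scale. The separate entry for the Mir155 hairpin, which lies inside it, stayed between 0.0034 and 0.053 FPKM in all 4 groups. Mir8114, a microRNA gene, was at 0.017, 6.02, 0.019 and 0.054 FPKM. Scarna6, a guide RNA of Cajal bodies, was at 7.97, 18.9, 5.36 and 8.41 FPKM. Snora17, a small nucleolar RNA, was at 2.03 FPKM in early 2-cell embryos and listed at 0 in the other 3 groups. Both Mir8114 and Snora17 were thus near or at 0 outside the peak. The libraries were of poly(A) RNA, and Scarna6 (248 bp) and Snora17 (132 bp) lie inside longer genes. Their values are for the table's gene entries and may not measure the small RNAs themselves.

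The remaining 3 entries were low. Emc8-1190005i06rik, a read-through transcript of neighbouring genes, was at 0.0062, 12.7, 2.37 and 0.45 FPKM. 1700007K13Rik was at 0.28, 4.38, 1.31 and 1.29 FPKM. Ccdc89, a coiled-coil protein gene, was at 0.044, 2.19, 0.52 and 0.016 FPKM. These too were highest at the early 2-cell stage, but at levels where the added 1 understates a fold.

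**Figure D1:**
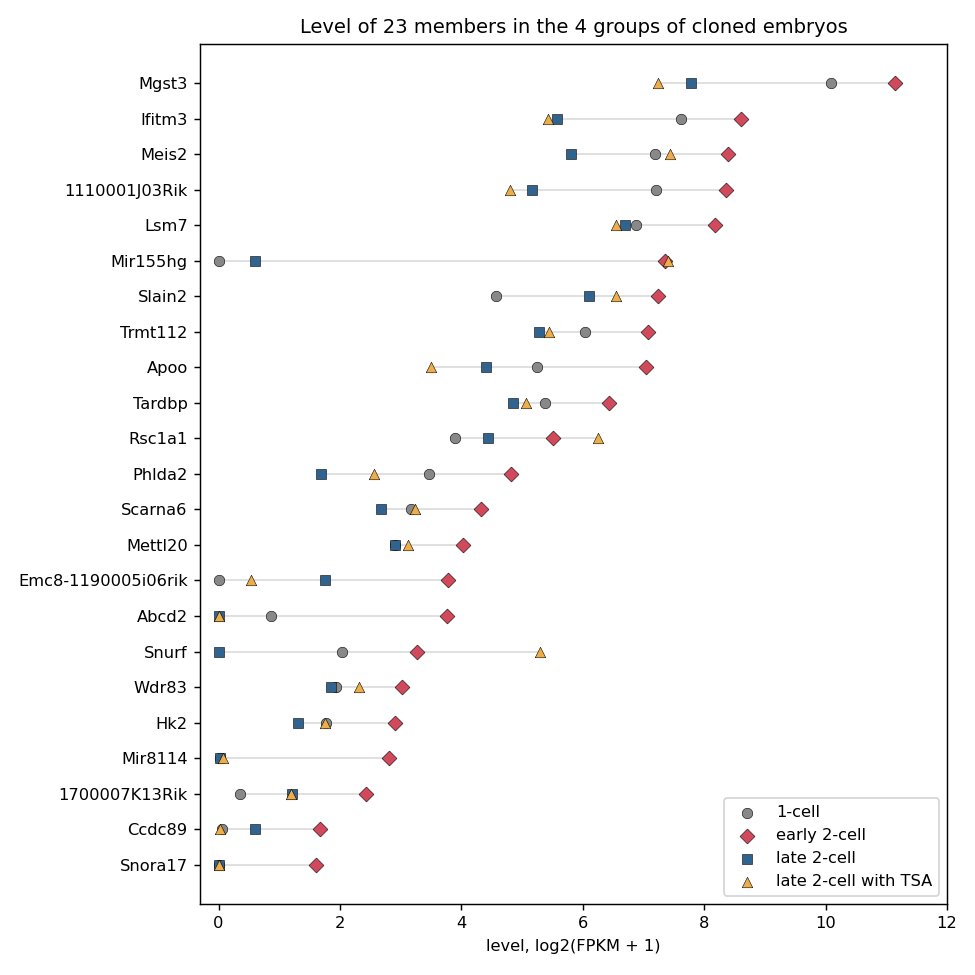
Each of the 23 rows is a member, ordered by its early 2-cell level, and the x axis is its level as log2(FPKM + 1), with 1 point for the authors' value in each of the 4 groups and no error. The early 2-cell diamond is the rightmost point of each row by the rule among untreated groups, and the TSA triangle lies at or to the right of it for Mir155hg, Rsc1a1 and Snurf.

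Members near the limits of the rule were as follows. On the first rise, Ifitm3 (1.0003) and Trmt112 (1.04) were just inside, and Fam96b (0.997) and Cks1b (0.995) just outside. On the later fall, Ccdc89 (1.07) and Rsc1a1 (1.08) were just inside, and Hspa2 (0.94) and 2700054A10Rik (0.92) just outside. On the early 2-cell level, Snora17 (2.03 FPKM) and Ccdc89 (2.19 FPKM) were just inside, and Mir3473g (1.91 FPKM) and Gm14920 (1.89 FPKM) just outside. No gap in the values separates the members from genes next to them. With the difference raised to 2 on both sides, 4 members were left: Mir155hg, Abcd2, Mir8114 and Emc8-1190005i06rik.

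The size of the set depends on how the columns are scaled. Median-ratio scaling moves early 2-cell values up by 0.14 against 1-cell and by 0.62 against late 2-cell values on the log2 scale. With it 71 genes met the rule, among them all 24 members, and after quantile normalization 94 did, among them 22 (Ifitm3 and Mgst3 were not). The scaling thus changed mainly how many further genes met the rule, and less whether the members did.

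**Figure D2:**
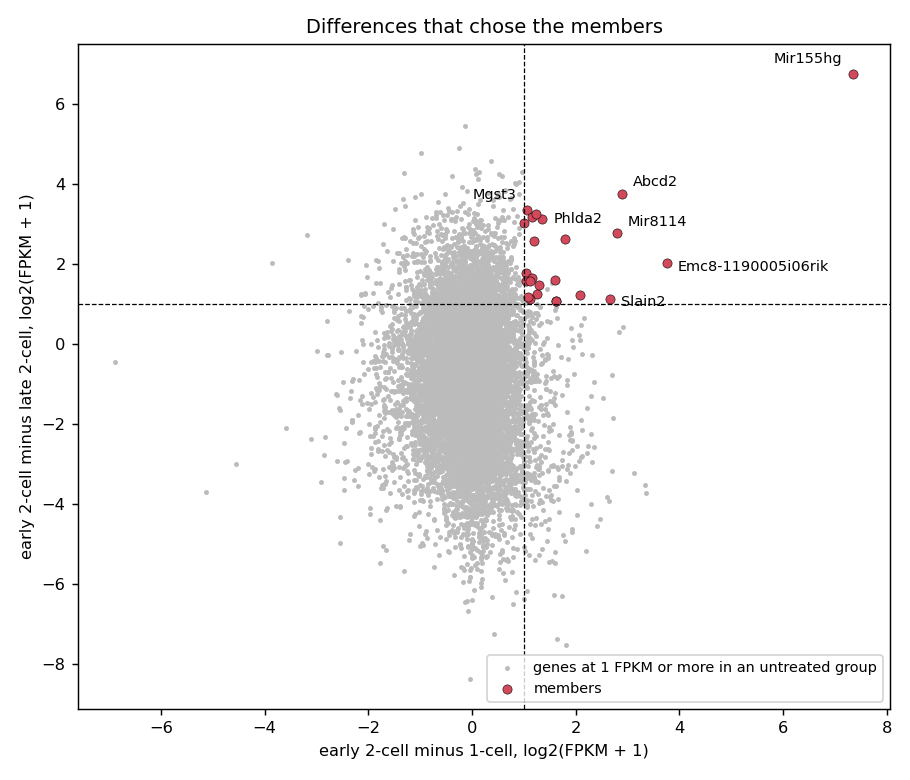
Each point is a gene at 1 FPKM or more in at least 1 untreated group, with early 2-cell minus 1-cell on the x axis and early minus late 2-cell on the y axis, both as log2(FPKM + 1) differences. Dashed lines mark 1, the members in colour lie above and to the right of both, and Mir155hg lies far from all others at 7.35 and 6.75.

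The late 2-cell levels were then set side by side with and without TSA. With TSA, 14 of 24 members were above and 8 below their untreated late 2-cell value, and 2 (Abcd2 and Snora17) were listed at 0 in both. After median-ratio scaling 16 were above and 6 below, with Lsm7 and 1700007K13Rik on the other side, and after quantile normalization 15 and 7. Over 12756 genes at 1 FPKM or more in either late 2-cell group, 5518 (43.3%) were above and 7238 below as deposited. The median difference was 0.12 over the 24 members, against -0.08 over these 12756 genes. Of the members, 20 passed that filter, 2 of them (Mir155hg and Snurf) only through their level with TSA. The untreated late 2-cell column chose the members and is also the base of this comparison, so these counts are a description.

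At least 1 higher with TSA on the log2(FPKM + 1) scale were 4 of 24 members, and 1 was at least 1 lower. Over the 12756 genes, 2.51% were higher and 4.08% lower by this size. The 4 were Mir155hg (a difference of 6.81), Snurf (5.28), Rsc1a1 (1.82) and Meis2 (1.63), and the 1 that was lower was Emc8-1190005i06rik (-1.22). These 4 were also higher by 1 or more under either scaling. After quantile normalization the difference of Emc8-1190005i06rik was -0.87. Phlda2 (0.87) did not reach 1 but was 2.20-fold higher in plain FPKM.

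A set that shares the fall but not the rise is set beside the 24 members. Its genes too were chosen by a low untreated late 2-cell level. It holds 1297 genes that were lower by 1 or more at the late than at the early 2-cell stage, at 2 FPKM or more at the early 2-cell stage, and had risen by less than 1 before. Of these, 24 (1.85%) were higher and 33 (2.54%) lower by 1 or more with TSA, with a median difference of -0.15. In this set 10 genes (0.77%) were at or above their early 2-cell level with TSA, against 3 of 24 members. The median share of the early 2-cell level retained was 26.2% without and 22.6% with TSA in this set, and 20.9% and 32.1% among the members. The sets are not matched: 7 of the 24 members but 0 of the 1297 genes were under 1 FPKM at the 1-cell stage. Both were chosen by the untreated late 2-cell level, the base of the TSA difference. The difference between the sets was not tested.

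Those 3 members were Mir155hg, at 104% of its early 2-cell level with TSA against 0.32% without, Rsc1a1, at 169% against 46.2%, and Snurf, at 445% against 0.10%. Meis2 followed at 51.6% against 16.4%. At the other end, Abcd2 and Snora17 were listed at 0 with and without TSA, Ccdc89 was at 0.74% with TSA against 23.8% without, and Mir8114 at 0.89% against 0.32%. Emc8-1190005i06rik was at 3.56% against 18.7%. Mgst3 followed at 6.66% against 9.73% and Apoo at 7.85% against 15.5%.

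**Figure D3:**
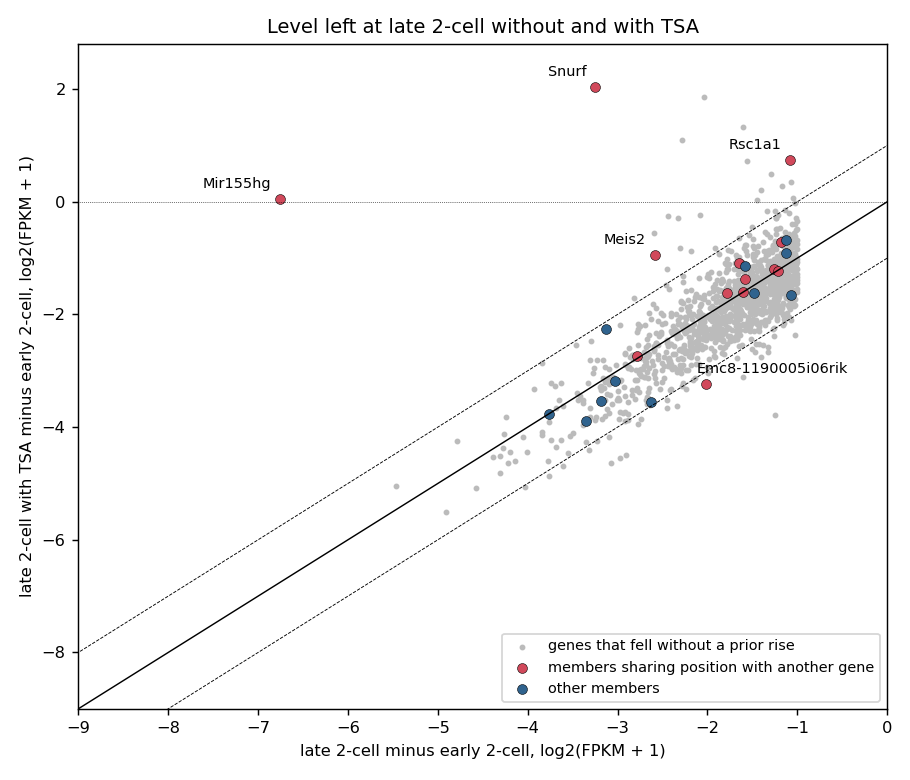
The x axis is late minus early 2-cell and the y axis TSA-treated late minus early 2-cell, both as log2(FPKM + 1) differences, for the 24 members and for the 1297 genes that fell without a prior rise (grey). The solid line marks equal late 2-cell levels and the dashed lines a difference of 1 between them; both axes share the early 2-cell value. Snurf, Mir155hg and Rsc1a1 lie above the dotted line of the early 2-cell level, and most other members lie along the solid line.

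Positions in the genome were compared next. RefSeq (GRCm38.p6, which has the coordinates of mm10) held all 24. Of these, 13 overlapped another RefSeq gene (54.2%), against 46.9% of 12974 matched genes at 1 FPKM or more in an untreated group. Lying wholly inside another gene were 4 (16.7%), against 3.67%. They were Snurf, Rsc1a1, Scarna6 and Snora17. The median genomic span was 5150.5 bp among members and 23091.5 bp among the matched genes. Whether the authors' counting used strand is not given in the sources used here, so reads from overlapping genes cannot be told apart. The 4 members at least 1 higher with TSA were all among the 13, and among the 11 members without an overlap 4 were above their untreated value, 0 by 1 or more. For Meis2 the overlap is 313 bp with a noncoding gene that has no entry in the table, and for Mir155hg it is the Mir155 hairpin.

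Summed levels show whether a whole locus peaked, although a sum of FPKM adds values scaled by different lengths. Snurf lies on chromosome 7 from 59982495 to 60005199, inside Snrpn, which was at 13.7, 18.2, 92.4 and 48.7 FPKM. Their sum was 16.8, 26.7, 92.4 and 86.8 FPKM, which rises to the late 2-cell stage and has no early 2-cell peak. Nor was the sum higher with TSA than without, unlike the Snurf entry, because the Snrpn value was lower with TSA. Snurf also lies inside the noncoding gene Snhg14, at 2.48, 1.55, 3.17 and 4.75 FPKM. The sum of Snurf and Snhg14 was 5.56, 10.1, 3.18 and 42.9 FPKM. It was highest with TSA, and among untreated groups at the early 2-cell stage, but did not meet the rule. Rsc1a1 lies on chromosome 4 from 141683563 to 141685716, at 1 end of Ddi2, a gene of a proteasome-linked protease at 9.01, 4.59, 11.3 and 12.1 FPKM. Their sum of 22.9, 49.2, 31.9 and 87.2 FPKM was highest with TSA, as for Rsc1a1 alone, but fell by less than 1 after the early 2-cell stage. The read-through entry Emc8-1190005i06rik spans Emc8, a subunit gene of the ER membrane complex, and 1190005I06Rik on chromosome 8 from 120608600 to 120668142. The 3 entries together were at 66.8, 95.8, 242 and 196 FPKM, again with no early 2-cell peak.

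The small RNA entries lie inside or at the start of genes that rose to the late 2-cell stage. Mir8114, on chromosome 1 from 153899926 to 153900036, overlaps Glul, which encodes glutamine synthetase and was at 16.3, 73.6, 531 and 813 FPKM. Snora17, on chromosome 2 from 26639190 to 26639321, lies in Snhg7, a host of small nucleolar RNAs at 0.75, 3.18, 34.4 and 26.6 FPKM. Scarna6, on chromosome 1 from 87784571 to 87784818, lies in the autophagy gene Atg16l1, at 4.46, 5.08, 17.1 and 15.6 FPKM. None of these host genes peaked at the early 2-cell stage. Mir155hg, on chromosome 16 from 84713023 to 84715245, is different in that the table holds no other overlapping entry above 0.053 FPKM.

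**Figure D4:**
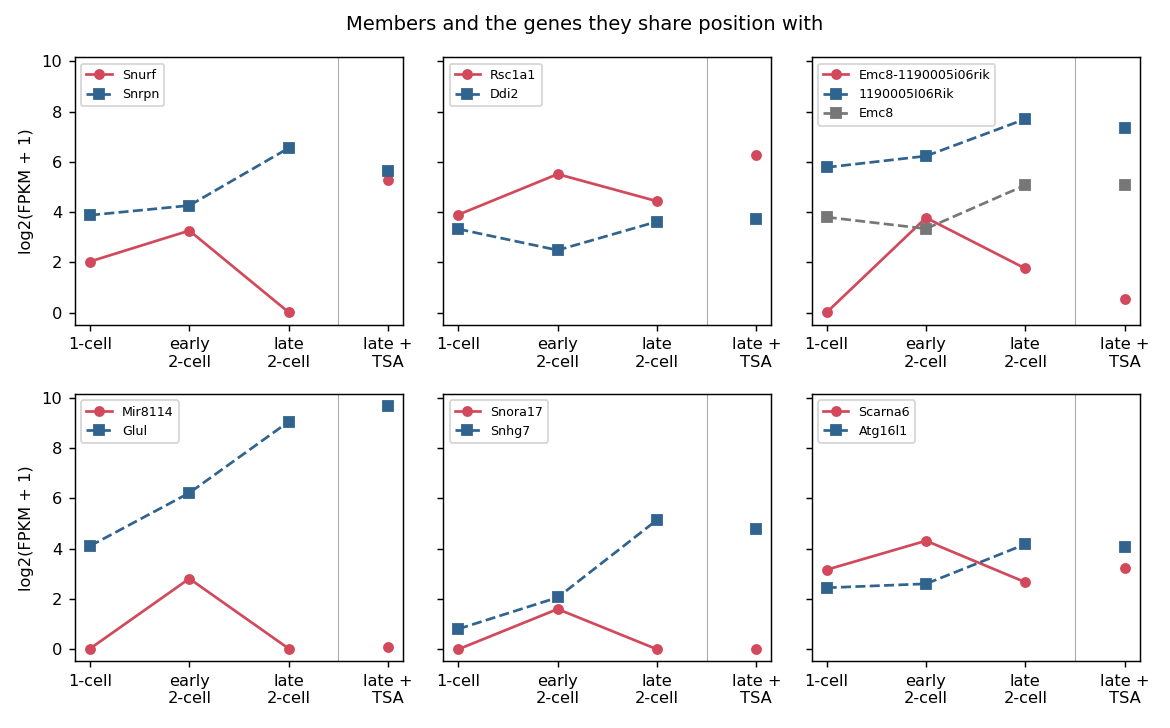
Each panel shows a member (circles) and the genes it shares position with (squares), as log2(FPKM + 1) on the y axis over the 3 untreated stages and, right of the grey line, in TSA-treated late 2-cell embryos. Lines join stages only, and Snhg14, which also contains Snurf, is not drawn. In these 6 panels the member peaks at the early 2-cell stage among untreated groups while its partner is highest in a late 2-cell group.

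For other overlapping members the sums differed. Tardbp overlaps Masp2, and Trmt112 overlaps Prdx5 and Esrra, and their sum with each partner still met the rule. The sum of Wdr83 with Dhps (0.19 FPKM in early and 10.6 in late 2-cell embryos) did not, nor did that of 1700007K13Rik with Mrps2 (17.5 and 24.2 FPKM). Chromosome 7 held 4 members, chromosomes 1, 2 and 6 held 3 each, and the others lay on 9 further chromosomes with 1 or 2 each. On chromosome 7, Phlda2 (143501545 to 143503145) and Ifitm3 (141009590 to 141010744) are not adjacent, and 2 genes near Phlda2 did not meet the rule. Slc22a18 was at 0.23 FPKM in late 2-cell embryos and listed at 0 in the other groups. Cdkn1c, an imprinted inhibitor of the cell cycle, was at 3.45, 4.09, 2.11 and 6.66 FPKM, so it was higher with TSA than without, as was Phlda2.

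Base composition before the annotated start was compared among the members, a choice made after their TSA differences had been seen. RefSeq gave 250 bases for 18 of 24 members. Their median was 52.6% G + C with 12.5 CG dinucleotides, against 52.0% and 6 over 27025 promoters. The 27025 were not limited to genes measured at 1 FPKM or more, so they are not a background of expressed genes. The 4 members at least 1 higher with TSA were at 33.2% to 47.6% G + C with 0 to 7 CG dinucleotides. The other 14 were at 38.0% to 74.4% with a median of 61.6%, and held 1 to 34 CG dinucleotides. Mir155hg, Rsc1a1 and Snurf had the lowest G + C of the 18. Rsc1a1 and Snurf lie inside other genes, so their stretches may not be where transcription starts. For Meis2 the start used (116064619) lies inside the gene, whose outer end is at 116067537. The starts used for Mettl20, Apoo, Tardbp and Phlda2 are not at the gene's outer end either. The groups overlap, since Ccdc89 at 38.0% was not higher with TSA (-0.58).

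**Figure D5:**
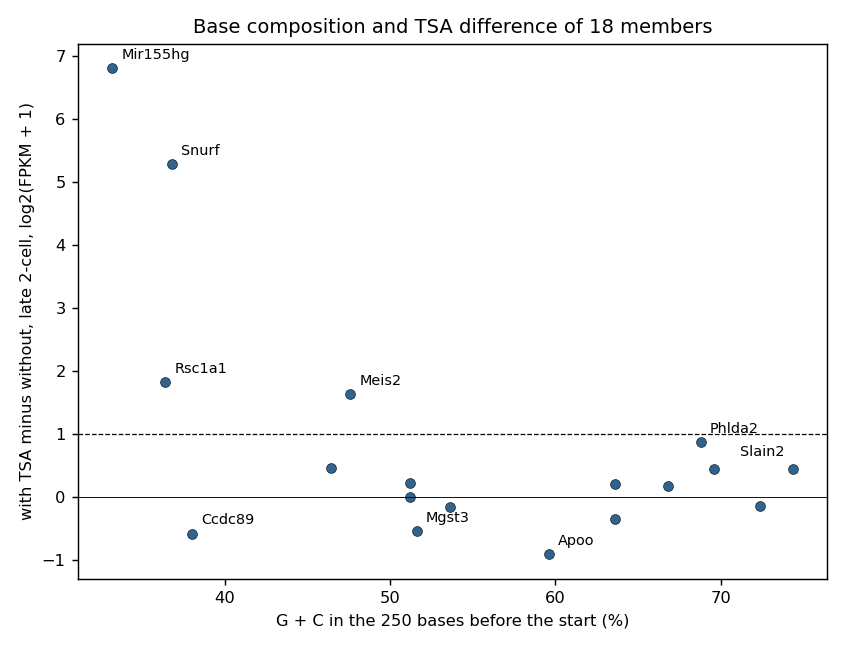
Each of the 18 points is a member with its share of G + C in the 250 bases before the annotated start on the x axis and its TSA-treated minus untreated late 2-cell difference, as log2(FPKM + 1), on the y axis. The dashed line marks 1. The 3 points of lowest G + C (33.2% to 36.8%) lie above it with Meis2 (47.6%), and the 12 members above 50% G + C all lie below it.

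Short motifs were searched on both strands of the same stretches. The GC box GGGCGG was present in 11 of 18 members (61.1%) and in 32.9% of all promoters. All shares over promoters here include genes that were not expressed, and a comparison with expressed genes was not made. The ETS core CCGGAA was in 5 (27.8%) against 12.2%, the TATA box TATAAA in 4 (22.2%) against 13.0%, and CCAAT in 5 (27.8%) against 34.5%. The AP-1 site TGANTCA, where N is any base, was in 1 (5.56%) against 6.87%, and the E-box CACGTG in 0 against 6.05%. Overlaps between motifs were not removed, and a match is a description of letters and not of binding.

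Relatives and partners of the members were also looked at. Of 40 such genes in the table, listed after the members' values had been seen, 34 were at 1 FPKM or more in an untreated group and 0 met the rule. Of the 34, 1 rose by 1 or more at the early 2-cell stage and 2 fell, whereas 15 rose and 4 fell by 1 or more between the 2-cell stages. Over the 13012 genes, 2.89% rose and 5.53% fell at the first step, 47.1% rose and 10.8% fell at the later step, and 0.184% met the rule, so a count of 0 among 34 is near the share over all genes. The 1 that rose was Lsm2, a fellow subunit of the LSm ring, at 73.0, 194, 187 and 201 FPKM, which stayed high where Lsm7 fell. Immt, the core subunit of the MICOS complex, was at 149, 67.1, 62.4 and 64.1 FPKM, lower at the early 2-cell stage where Apoo was highest. Other relatives fell later without a prior rise of 1. Among them were the MICOS subunit gene Chchd6, at 33.1, 27.4, 13.1 and 16.3 FPKM, and the Trmt112 partner Trmt11, at 71.9, 58.8, 20.4 and 16.6 FPKM. Chchd3, also of MICOS, was at 46.9, 50.2, 26.2 and 24.7 FPKM, a fall of 0.91. Slain1 was level, at 45.7, 55.9, 54.0 and 42.6 FPKM. Ifitm2 was at 0.95, 2.27, 56.8 and 53.8 FPKM, high where Ifitm3 was low.

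Gene groups known from this period are given by their counts, which are to be read against the same shares over all genes (2.89% rising first, 47.1% rising and 10.8% falling later). At 0.184% meeting the rule, 0 members in a group of this size is near the background. Of 29 measured genes typical of the 2-cell stage, 6 rose by 1 or more at the first cleavage, but 24 rose and 2 fell by 1 or more between the 2-cell stages, and 0 met the rule. Gm8300, for example, was at 2.05, 13.9, 70.1 and 106 FPKM. Of 14 immediate early genes, 2 rose at the first step, Ier2 and Ier5, and of 15 p53 targets 2 did, Cdkn1a and Gadd45g. Each of these 4 was higher still at the late 2-cell stage. Of 97 cytosolic ribosomal protein genes, 18 rose at the first step, 2 fell at the later step, and 0 were members. Falls here are counted over all genes of a group, whether or not they had risen. Of 72 entries for small nucleolar RNAs and their hosts, 23 rose at the first step and 4 fell at the later step, with Snora17 the 1 member. Of 79 microRNA entries, 17 rose at the first step and 6 fell at the later step, with Mir155hg and Mir8114 as members.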

How the data were processed

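Poly(A) RNA of cloned embryos was sequenced. The authors' table gives log2(FPKM + 1), per the file headers, with 1 deposited value per gene and group. The replicate tests planned here could therefore not be fitted. The submitters' processing notes name the build mm10 and HISAT2 2.1.0, StringTie 1.3.4 and Cufflinks among their tools, without roles. How the libraries of a group were combined is not given in the sources used here. The table has 6 columns, of which 4 were matched to groups by name and 2 match no RNA library and were not used. The 1-cell column is named by 13 h, and its group is inferred from the collection time. Sequencing depth is unknown, so no interval or detection limit is given, and a value of 0 is only called listed at 0.

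Median-ratio scaling moved the median gene by 0.15 in the TSA comparison. Values were turned back into FPKM with Python 3.11.15 and pandas 2.3.3, and a difference is between log2(FPKM + 1) values. Background counts use genes at 1 FPKM or more in any group compared, except for promoters, where no level was required. Gene names, positions and sequences come from RefSeq GRCm38.p6, matched by symbol or a synonym that is not shared. The members and gene lists were chosen with earlier results of these data known. Of the members 23 are named and 1 is not reported here by name; also named are genes next to the limits, partners that overlap a member, and list genes that differ by 1 or more. The rule was tested on simulated data. Alternatives were the pseudocount, the scaling, the minimum level and the size of difference.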

Additional observations from a re-analysis of the deposited data

How the results depend on the processing

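The count of 24 peaking transcripts became 42 with a pseudocount of 0.1, 12 with one of 5, 71 after median-ratio scaling, 94 after quantile normalization and 4 with a difference of 2. It was 11 without members that share position with another RefSeq gene, a setting chosen after seeing the data. With a minimum of 5 FPKM it was 21, and with no minimum 33. The count higher with TSA, 4, was 8 with a pseudocount of 0.1, 2 with one of 5, 1 with a difference of 2 and 0 without members that share position, and the count lower, 1, was 4, 0, 1 and 0 in these settings, 3 after median-ratio scaling and 5 after quantile normalization. The median TSA difference of 0.12 was 0.0049 with a pseudocount of 5, 0.0066 after median-ratio scaling, 0 after quantile normalization and -0.14, the opposite sign, without members that share position. Members at or above their early 2-cell level with TSA, 3, were 1 with a pseudocount of 5 or a difference of 2 and 0 without members that share position. Each setting was applied to the choice of members too, so fewer or more genes entered each value. No paired analysis was possible because the table has 1 column per group, and for the same reason leaving out replicates was not run. Unknown depth limits all values near 0.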

Other observations

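After median-ratio scaling 47 further genes met the rule, 17 of them at 100 FPKM or more at the early 2-cell stage, and 27 of the 47 also met it after quantile normalization. Pttg1, which encodes securin, was at 4823 FPKM at the 1-cell stage, 9416 FPKM at the early 2-cell stage and 473 FPKM at the late 2-cell stage, and at 411 FPKM with TSA. Cks1b, a small subunit of cyclin-dependent kinases, was at 605, 1206, 358 and 337 FPKM in the same order. Sap30, a subunit of the Sin3 histone deacetylase complex, was at 442, 829.7, 61.0 and 88.3 FPKM. Hypk, a chaperone of the N-terminal acetyltransferase, was at 1304, 2494, 828 and 617 FPKM. These 4 were picked after their values were seen, and the 47 were not tested for a common function. As deposited, their first rise was 0.96, 0.99, 0.91 and 0.93. On the deposited scale, 0 of the 47 were higher and 5 lower by 1 or more with TSA than without, with a median difference of -0.16, against 4 higher, 1 lower and 0.12 among the 24 members. After median-ratio scaling, 0 of the 47 were higher and 2 lower with a median of -0.05, against 4, 1 and 0.27 among the members.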
